A study of Mus musculus with 74 samples.

Results

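Leukaemia inhibitory factor (LIF) keeps mouse embryonic stem (ES) cells in self-renewal, and the genes described here carry its signal from the cell surface to the nucleus. They are the receptor chains Lifr and Il6st, the Janus kinases Jak1, Jak2 and Tyk2, the transcription factor Stat3, the suppressors of cytokine signalling Socs1, Socs2 and Socs3, and the kinase Pim1. These 10 genes were listed by name, with no measured value in the rule, but with earlier results of these data known. All 10 were found among the 37620 genes of the deposited tables, in each of the 35 libraries.

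LIF binds the receptor chain encoded by Lifr, which pairs with gp130, the product of Il6st. Janus kinases bound to both chains then phosphorylate them and STAT3, which moves to the nucleus and activates transcription. In ES cells Socs3 is a classical target of STAT3, and its protein binds gp130 and the kinases and dampens the signal, so that the loop is a negative feedback. Loss of LIF is known to let ES cells leave self-renewal, and high Nanog is known to let them keep it without LIF.

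RNA-seq was performed on mouse ES cell lines, all in medium with serum. SunTag cells, made from E14Tg2a cells, carry a Dox-inducible CRISPR activator, in which an inactive Cas9 with copies of the GCN4 epitope recruits antibody fragments fused to VP64. A guide RNA directs it in Nanog SunTag cells to the Nanog promoter, in 1 clone derived from each of the parental lines C1 and C2. A further clone of each, for the Nanog/Otx2 SunTag cells (C1ON3 and C2ON3), also carries a guide RNA for Otx2. Both kinds of cells were kept for 3 days with LIF (10 ng/mL) or without it, and with Dox (1 µg/mL) or without it, which gave 11 and 15 libraries. 44iN cells lack functional endogenous Nanog and carry a Dox-inducible Nanog transgene. All 6 of their libraries come from cells in LIF, with Dox, 24 h after its removal, or after long-term (LT) culture without it, 2 of each. The long-term culture was under G418 selection. The set is completed by 3 libraries of Tg2a, the wild-type line, also in LIF. All SunTag libraries come from these few clones, so that a property of a clone and one of its guide cannot be told apart. Identifiers of Nanog SunTag libraries begin with HV_G with LIF and with HV_H without it, and those of Nanog/Otx2 SunTag libraries with another prefix. Whether these series are batches is not stated. A difference between series cannot be told apart from LIF in Nanog SunTag cells, nor from the guide between the 2 kinds of cells. Every SunTag library with Dox also carries a guide for Nanog. Effects of Dox or of the activator therefore cannot be told apart from those of Nanog, and in 44iN cells Dox and Nanog also change together. That the libraries of a group came from separate cultures is not stated by the labels, so p-values measure the spread between these libraries, which may be in part technical.

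The library totals lay between 6107512 and 92244655 estimated counts, and the values below are normalised counts, which are the estimated counts divided by a size factor for each library. The lowest total was that of C2ON3-1 among the Nanog/Otx2 libraries with LIF and without Dox. A trend with the GC content of the transcripts set some libraries apart from their groups. It ran between -0.54 and 0.48 on the log2 scale per 10 percentage points of GC, with these extremes in C1-1 of Nanog SunTag cells with LIF and without Dox and in the second 44iN library with Dox. Nanog, the targeted gene, lay between 21940 and 29487 in Nanog SunTag cells with LIF alone and between 75226 and 93813 after Dox. Without LIF it lay between 2234 and 8484, and with Dox between 45041 and 55641. The change with Dox was called without LIF (3.16, adjusted p = 0.000899) but not with it (1.74, adjusted p = 0.0793). In Nanog/Otx2 SunTag cells Dox raised Nanog under both conditions, by 3.19 without LIF (adjusted p = 1.7e-05) and 1.19 with it (adjusted p = 0.0196), and Otx2 by 0.85 (adjusted p = 0.000566) and 1.88 (adjusted p = 7.83e-06), all as log2 fold changes. In 44iN cells Nanog was at 13366 and 18394 with Dox, at 705.5 and 739.5 after 24 h without it, and at 275.6 and 228.1 in long-term culture, against 19420 to 20261 in Tg2a cells. All of the 5 ES cell markers other than Nanog (Pou5f1, Sox2, Zfp42, Esrrb and Tfcp2l1) were above 3 counts in at least 1 library of every group.

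In Nanog SunTag cells with LIF and without Dox, Socs3 and Pim1 had the highest levels per length of exon. This length joins all annotated exons of a gene and can exceed that of the transcripts present, so the order depends on the annotation. Socs3 was at 1300 ± 429 normalised counts per kb (SD, n = 3) and Pim1 at 900 ± 162. Lifr (343 ± 91.9), Il6st (312 ± 50.1) and Stat3 (267 ± 14.7) followed, then Jak1 (177 ± 62.3), Tyk2 (137 ± 11.4) and Socs2 (131 ± 28.5). Jak2 (33.5 ± 11.1) and Socs1 (26.6 ± 10.3) were the lowest of the 10 genes. Within each of these 4 sets the ranges of neighbours in the order overlapped, and between the sets they did not. After LIF withdrawal without Dox the order had changed, with Pim1 (353 ± 54.6) at the top and Socs3 (21.6 ± 5.82) beside Socs1 (15.3 ± 4.3) at the bottom.

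LIF withdrawal without Dox lowered both receptor chains, Stat3 and, of the 3 SOCS genes, Socs3. In both kinds of SunTag cells Lifr, Il6st, Stat3, Socs3 and Pim1 were lower, from 1.68 times lower for Il6st to 60.9 times lower for Socs3 in Nanog SunTag cells. Tyk2 was also lower in Nanog/Otx2 SunTag cells, and none of the 10 genes was called higher. A gene was called when its Benjamini-Hochberg adjusted p-value over all tested genes, from edgeR's quasi-likelihood test, was under 0.05. This made 5 of the 10 genes called in Nanog SunTag cells, where 41.5% of all tested genes were called in either direction and 21.3% as lower. It made 6 of the 10 in Nanog/Otx2 SunTag cells, where 49.8% of all genes were called and 25.2% as lower. Over the 10 genes the median log2 change was -0.77 and -0.93, against -0.05 and -0.01 over all genes tested. The summed level of the 5 ES cell markers fell along with them, from between 84050 and 103109 to between 26876 and 35358 in Nanog SunTag cells. The markers of formative epiblast Fgf5, Dnmt3b and Pou3f1 summed to between 2906 and 6269 with LIF and to between 67671 and 79658 without it. In the same libraries neuroectoderm markers summed to between 167.3 and 350.8 with LIF and between 1183 and 3681 without it. For trophoblast these ranges were 251.7 to 466 and 1525 to 1856, and for mesendoderm 91.14 to 207.9 and 440.1 to 650.2. Those of primitive endoderm and of fibroblasts overlapped between the conditions. In Nanog/Otx2 SunTag cells the 5 ES cell markers fell from between 105734 and 115426 to between 43891 and 56031. Formative markers rose there from between 3819 and 11029 to between 85170 and 95730, and the same lists overlapped as in Nanog SunTag cells. The part of this change of cell state in the results on LIF was not tested, and in bulk RNA fewer cells with a transcript and less of it per cell cannot be told apart.

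**Figure D1:**
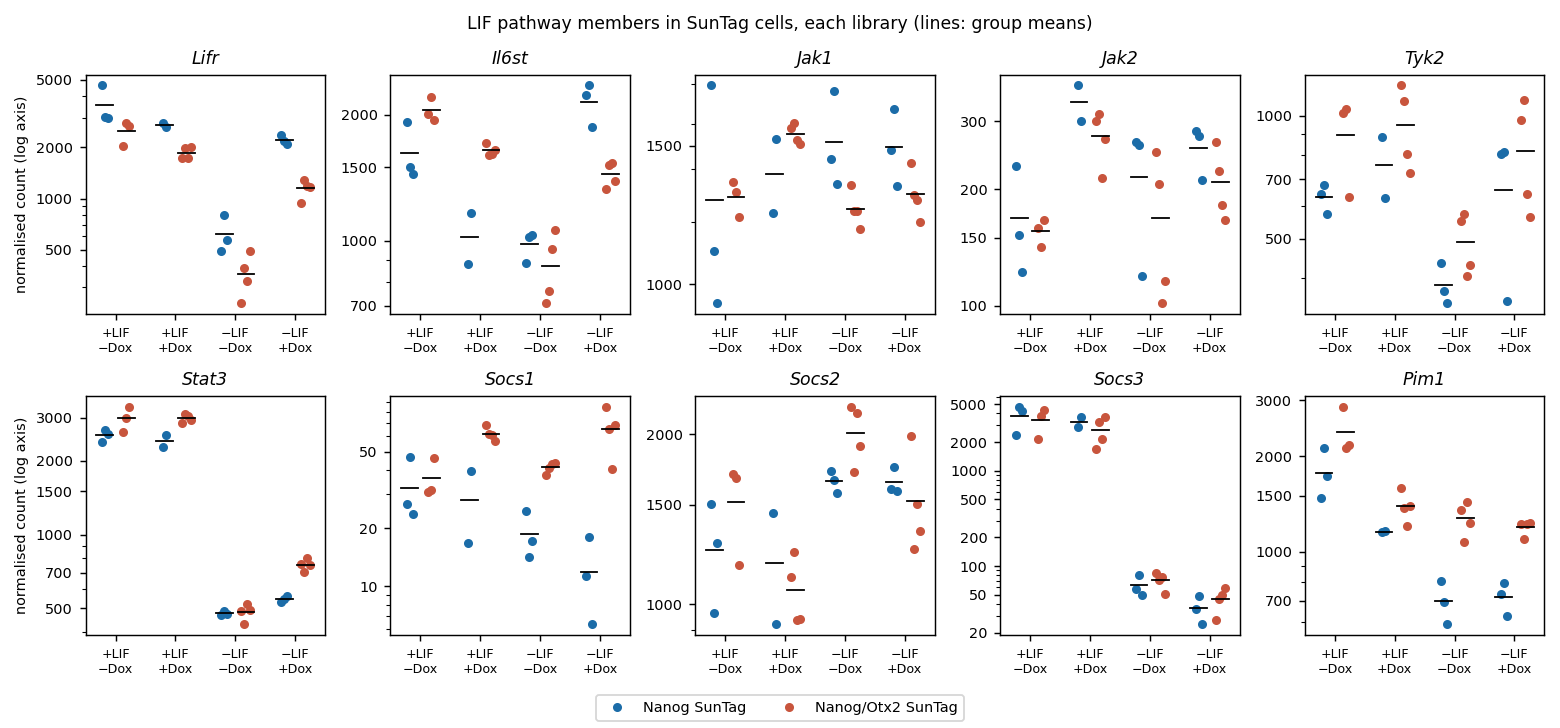
Normalised counts (log axis, a scale of its own in each panel) of the 10 genes in each library of Nanog SunTag (blue) and Nanog/Otx2 SunTag cells (red), by LIF and Dox, with black lines at the group means. Socs3 and Stat3 separate by LIF in every library with and without Dox, while Lifr without LIF lies at 618.9 on average without Dox and at 2217 with it in Nanog SunTag cells.

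Lifr (ENSMUSG00000054263, chromosome 15 of mm9, 7079559 to 7147489, plus strand) encodes the chain that binds LIF. It was at 4638, 3009 and 2980 in Nanog SunTag cells with LIF and without Dox, from C1-1, C2-1 and C2-2. After LIF withdrawal it was at 488.5, 800.1 and 567.9 in C1-1, C1-2 and C2-1. The 2 groups did not overlap, and the highest value came from the library with the extreme GC trend. The log2 fold change was -2.54 (standard error, SE, 0.23, adjusted p = 1.09e-05). Lifr in Nanog/Otx2 SunTag cells was at 2044, 2800 and 2666 with LIF in C1ON3-1, C1ON3-2 and C2ON3-1. Without LIF it was at 241.4, 389.7, 326.4 and 488.6, and the log2 fold change was -2.84 (SE 0.19, adjusted p = 2.54e-08). Withdrawal thus left 17.5% of the mean Lifr level in Nanog SunTag cells and 14.4% in Nanog/Otx2 SunTag cells.

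Il6st (ENSMUSG00000021756, chromosome 13 of mm9, 113265216 to 113297068, plus strand) encodes gp130, the chain shared by the cytokines of the IL-6 family. It was at 1923, 1499 and 1448 with LIF and at 887.5, 1021 and 1034 without it in Nanog SunTag cells. These groups did not overlap, and the log2 fold change was -0.75 (SE 0.18, adjusted p = 0.00575). Il6st in Nanog/Otx2 SunTag cells was at 2011, 2208 and 1940 with LIF and at 709.8, 758.2, 956.8 and 1063 without it. The log2 fold change there was -1.27 (SE 0.12, adjusted p = 6.22e-07). Il6st kept 60.4% and 42.5% of its level, so that the shared chain was lowered by less than Lifr in both kinds of cells.

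Stat3 (ENSMUSG00000004040, chromosome 11 of mm9, 100746412 to 100800854, minus strand), which encodes the factor that carries the signal to the nucleus, varied little within groups. It was at 2386, 2658 and 2581 with LIF in Nanog SunTag cells and at 470.6, 489.9 and 473.3 without it. The Nanog/Otx2 SunTag cells held Stat3 at 2623, 2981 and 3328 with LIF and at 489.1, 430.6, 522.9 and 494.1 without it. Libraries with and without LIF were far apart in both. The log2 fold changes were -2.43 (SE 0.13, adjusted p = 6.79e-07) and -2.65 (SE 0.09, adjusted p = 5.45e-11).

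Socs3 (ENSMUSG00000053113, chromosome 11 of mm9, 117827393 to 117831361, minus strand) encodes the inhibitor that acts on gp130 and its kinases. It was at 2356, 4719 and 4197 in Nanog SunTag cells with LIF and at 57, 81.44 and 49.17 without it. The Nanog/Otx2 SunTag cells held it at 2152, 3734 and 4388 with LIF and at 84.25, 71.33, 76.61 and 51.2 without it. This was the largest change among the 10 genes in both kinds of cells. The log2 fold changes were -5.93 (SE 0.34, adjusted p = 8.07e-07) and -5.59 (SE 0.33, adjusted p = 5.92e-09), and 1.66% and 2.07% of the level remained.

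The sequence upstream of Socs3 is shown because it was the only promoter window among these genes with a match to the STAT motif TTCNNNGAA, which reads the same on both strands and so was searched once. Promoter windows from RefSeq (GRCm38.p6) cover 250 bases before to 50 after a start site, and were at hand for 9 of the 10 genes, all but Socs2. The motif was found in 8.3% of all 32851 windows. Of the 9 genes 1 had a match (11.1%), counted by gene over all of its windows, a unit unlike that of the share over all windows. The 250 bases upstream of the Socs3 start site (chr11:117969367-117969616, minus strand) read as follows, with the match in capitals, 154 to 146 bases before the start site.
Socs3: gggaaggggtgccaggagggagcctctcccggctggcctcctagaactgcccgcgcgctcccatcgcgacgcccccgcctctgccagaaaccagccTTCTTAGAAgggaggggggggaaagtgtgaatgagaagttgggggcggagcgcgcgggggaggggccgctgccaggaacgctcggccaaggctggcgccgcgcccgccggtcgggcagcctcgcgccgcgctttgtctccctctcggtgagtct
Among 10 of the 12 genes of a list of STAT3-responsive genes that had a window, Icam1 and Sbno2 held the motif, again counted by gene. Icam1, which encodes an adhesion molecule, is also shown since its level followed that of Socs3 closely, as given further on. These 49 bases (chr9:21015878-21015926, plus strand) hold its match 42 to 34 bases before the start site.
Icam1: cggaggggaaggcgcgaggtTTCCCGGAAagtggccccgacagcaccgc
A match describes the letters of these windows only, and binding of STAT3 was not measured here.

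Neither of the other SOCS genes was called on LIF withdrawal without Dox. Socs2 (ENSMUSG00000020027, chromosome 10 of mm9, 94847996 to 94879814), known for its action on growth hormone signalling, was at 1502, 962.2 and 1281 with LIF and at 1722, 1660 and 1575 without it in Nanog SunTag cells. Socs2 in Nanog/Otx2 SunTag cells was at 1703, 1673 and 1171 with LIF and at 2239, 1716, 2177 and 1902 without it. All libraries without LIF lay above those with it in both kinds of cells, yet the log2 fold changes of 0.38 (SE 0.20, adjusted p = 0.143) and 0.36 (SE 0.17, adjusted p = 0.0865) did not pass the test. With the clone and its number as a block the latter was 0.40 (adjusted p = 0.0233). Without C1-1 with LIF and without Dox, the library with the extreme GC trend, the value in Nanog SunTag cells was 0.57 (adjusted p = 0.0242). The value in Nanog/Otx2 SunTag cells without C1ON3-1 without LIF and with Dox was 0.36 (adjusted p = 0.0491). Socs1 (ENSMUSG00000038037, chromosome 16 of mm9, 10783901 to 10785629), another inhibitor of the kinases, had between 14.22 and 46.93 normalised counts in these groups. Its log2 fold changes were -0.80 (95% interval -1.89 to 0.30) and 0.23 (95% interval -0.29 to 0.75), with adjusted p = 0.221 and 0.457, so that a change of the size seen for Pim1 was not excluded in Nanog SunTag cells.

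Among the kinases, Tyk2 (ENSMUSG00000032175, chromosome 9 of mm9, 20908521 to 20931790) was the one with lower levels. It was at 642.6, 677.2 and 574.3 with LIF and at 436.4, 372.3 and 347.9 without it in Nanog SunTag cells, with no overlap. The log2 fold change of -0.73 (SE 0.28) just missed the threshold (adjusted p = 0.0574), and was -0.90 (adjusted p = 0.0072) with the clone as a block. It was -0.80 (adjusted p = 0.0432) after a correction for GC content, -0.70 (adjusted p = 0.046) in DESeq2 and -0.70 (adjusted p = 0.0123) without C2-2 without LIF and with Dox. Tyk2 in Nanog/Otx2 SunTag cells was at 1018, 1040 and 634.2 with LIF and at 553.7, 575.9, 405.5 and 430.7 without it. The log2 fold change was -0.92 (SE 0.24, adjusted p = 0.00559), and in both conditions the C1ON3 libraries lay above those of C2ON3.

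Jak1 (ENSMUSG00000028530, chromosome 4 of mm9, 100824972 to 100937887), the main kinase of gp130 receptors, was at 1791, 1101 and 945.1 with LIF and at 1442, 1764 and 1340 without it in Nanog SunTag cells. These groups overlapped through C1-1 alone, and the log2 fold change was 0.22 (95% interval -0.29 to 0.73, adjusted p = 0.469), but 0.58 (adjusted p = 0.0149) without that library. Jak1 in Nanog/Otx2 SunTag cells lay between 1174 and 1348 in all 7 of these libraries, and the log2 fold change was -0.09 (95% interval -0.24 to 0.07, adjusted p = 0.35). Jak2 (ENSMUSG00000024789, chromosome 19 of mm9, 29326318 to 29387570) was at 230.3, 152.5 and 122.3 with LIF and at 264.6, 261.1 and 119.2 without it in Nanog SunTag cells. Its groups overlapped in both kinds of cells, with log2 fold changes of 0.35 (95% interval -0.37 to 1.07, adjusted p = 0.423) and 0.10 (95% interval -0.50 to 0.69, adjusted p = 0.799).

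Pim1 (ENSMUSG00000024014, chromosome 17 of mm9, 29627757 to 29632390) encodes a serine/threonine kinase that cytokines induce through STAT factors. It was at 1478, 2112 and 1732 with LIF and at 805.3, 695.4 and 590.1 without it in Nanog SunTag cells. Pim1 in Nanog/Otx2 SunTag cells was at 2863, 2117 and 2162 with LIF and at 1350, 1069, 1436 and 1234 without it. The groups did not overlap in either, and the log2 fold changes were -1.36 (SE 0.18, adjusted p = 0.000134) and -0.94 (SE 0.12, adjusted p = 1.94e-05).

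**Figure D2:**
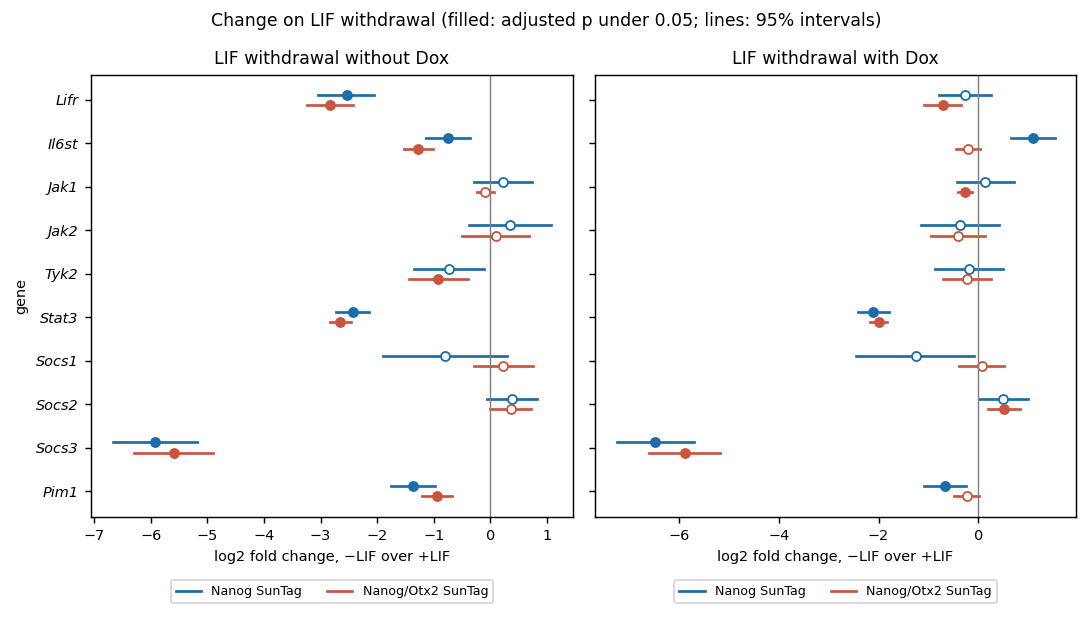
Log2 fold change (libraries without LIF over those with LIF) of the 10 genes in Nanog SunTag (blue) and Nanog/Otx2 SunTag cells (red), without Dox on the left and with Dox on the right, with 95% intervals and filled points where the adjusted p was under 0.05. With Dox the change of Lifr in Nanog SunTag cells is -0.26 in place of -2.54, while that of Socs3 is -6.48 beside -5.93.

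The levels of these genes without LIF were compared between cells with Dox, where Nanog was induced, and cells without Dox. The receptor chains rose in both kinds of SunTag cells, Lifr by 3.67 times and Il6st by 2.24 times in Nanog SunTag cells, while Socs3 and Pim1 were not called in either. In Nanog SunTag cells these were 2 of the 10 genes, where 5.14% of all genes tested were called (803, and 1375 with the clone as a block). In Nanog/Otx2 SunTag cells Tyk2, Stat3 and Socs1 rose as well, which made 5 of the 10, where 17.3% of all genes were called (2702, and 5215 with the block). Over the 10 genes the median log2 change was 0.15 and 0.51, against 0.00 and -0.01 over all genes. The 5 ES cell markers other than Nanog summed to between 45685 and 49466 in Nanog SunTag cells with Dox and without LIF, above the 26876 to 35358 without Dox. The 3 formative markers summed to between 30481 and 34229 in the same libraries, below the 67671 to 79658 without Dox. Trophoblast markers summed to between 954.2 and 1116, below 1525 to 1856. Primitive endoderm markers lay between 713.6 and 987.6, below 1580 to 1878, and the other lists overlapped. For Nanog/Otx2 SunTag cells the 5 ES cell markers lay between 58643 and 70266, above 43891 to 56031. Formative markers lay between 45438 and 54614, below 85170 to 95730, and the other lists overlapped there. The part of these cell states in the changes was not tested.

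Without LIF and with Dox, Lifr was at 2355, 2188 and 2109 in Nanog SunTag cells (C1-1, C1-1b and C2-2) and at 936.3, 1288, 1184 and 1176 in Nanog/Otx2 SunTag cells. Every one of these libraries lay above all libraries without LIF and Dox of the same kind of cells. The log2 fold changes were 1.87 (SE 0.22, adjusted p = 0.000742) and 1.71 (SE 0.18, adjusted p = 1.86e-05). Lifr thus stood at 62.6% and 45.8% of its mean level with LIF and without Dox. Of the Nanog SunTag libraries with Dox and without LIF, C1-1 and C1-1b carry the same title and number, and differ by identifier and column name. That they come from separate cultures is not stated by the labels.

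Il6st was at 2235, 2351 and 1870 in Nanog SunTag cells and at 1327, 1520, 1531 and 1390 in Nanog/Otx2 SunTag cells under the same condition. The log2 fold changes were 1.16 (SE 0.18, adjusted p = 0.00336) and 0.76 (SE 0.11, adjusted p = 0.000287). This was 133% of the mean level with LIF and without Dox in Nanog SunTag cells, and 70.2% in Nanog/Otx2 SunTag cells.

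Stat3 lay at 533.1, 548.7 and 564.7 in Nanog SunTag cells without LIF and with Dox. These values were all above the 470.6 to 489.9 without Dox, but the log2 fold change of 0.23 (95% interval -0.05 to 0.50, adjusted p = 0.377) did not pass the test. Stat3 in Nanog/Otx2 SunTag cells was at 759.3, 702.8, 800.5 and 749.7, and rose by a log2 fold change of 0.67 (SE 0.08, adjusted p = 5.49e-05). With Dox the cells without LIF still held 21.6% and 25.3% of the mean Stat3 level with LIF and without Dox.

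Socs3 was at 35.1, 48.01 and 24.4 in Nanog SunTag cells without LIF and with Dox, and at 27.02, 45.53, 49.48 and 59.18 in Nanog/Otx2 SunTag cells. The log2 fold changes against no Dox were -0.76 (95% interval -1.46 to -0.07, adjusted p = 0.221) and -0.62 (95% interval -1.33 to 0.09, adjusted p = 0.22). With the number from the column names in the block Socs3 was called lower in Nanog/Otx2 SunTag cells (-0.80, adjusted p = 0.044). An increase of Socs3 with Dox by more than 0.09 on the log2 scale lay outside both intervals. Pim1 was at 733.3, 793.8 and 625.3 and at 1220, 1099, 1223 and 1227, with log2 fold changes of 0.07 (95% interval -0.31 to 0.45, adjusted p = 0.899) and -0.06 (95% interval -0.30 to 0.19, adjusted p = 0.78).

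Tyk2 without LIF and with Dox was at 805.1, 815.3 and 351.5 in Nanog SunTag cells, where C2-2 stayed at the level without Dox. The log2 fold change of 0.80 (SE 0.28, adjusted p = 0.141) was 1.09 (adjusted p = 0.0129) without C2-2. The Nanog/Otx2 SunTag cells held it at 973.6, 1090, 644.5 and 565.5, with a log2 fold change of 0.77 (SE 0.23, adjusted p = 0.0312). This call was lost when C2ON3-1 or C2ON3-2 without Dox was left out, with values of 0.69 and 0.71 (adjusted p = 0.0941 and 0.0784). It was also lost without C1ON3-1 or C1ON3-2 with Dox, with values of 0.68 and 0.60 (adjusted p = 0.0847 and 0.115). With the clone and its number as a block the call was kept, at 0.74 (adjusted p = 3.02e-05).

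Socs1 in Nanog/Otx2 SunTag cells without LIF was at 37.78, 40.95, 43.3 and 43.4 without Dox and at 85.71, 65.38, 40.6 and 69.05 with it, so that C2ON3-1 lay among the libraries without Dox. The log2 fold change was 0.70 (SE 0.21, adjusted p = 0.0329), and 0.70 (adjusted p = 0.0719) with no filter on low counts. The call was lost without any 1 of the libraries of these 2 groups except C2ON3-1 with Dox, with values between 0.55 and 0.73 and adjusted p between 0.0563 and 0.109. Socs1 in Nanog SunTag cells was at 11.28, 18 and 6.325 with Dox, and its log2 fold change was -0.64 (95% interval -1.73 to 0.46, adjusted p = 0.578).

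Jak1 and Jak2 were not called without LIF, with log2 fold changes of 0.01 and 0.28 in Nanog SunTag cells and of 0.10 and 0.34 in Nanog/Otx2 SunTag cells. Their adjusted p lay between 0.361 and 0.991. Socs2 was at 1600, 1750 and 1587 in Nanog SunTag cells with Dox, a log2 fold change of 0.02 (95% interval -0.41 to 0.46, adjusted p = 0.974). The Nanog/Otx2 SunTag cells held it at 1984, 1252, 1503 and 1349, and the log2 fold change of -0.36 (adjusted p = 0.118) was -0.38 (adjusted p = 0.0318) with the block. It was -0.52 (adjusted p = 0.0281) without C1ON3-1 without LIF and with Dox.

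**Figure D3:**
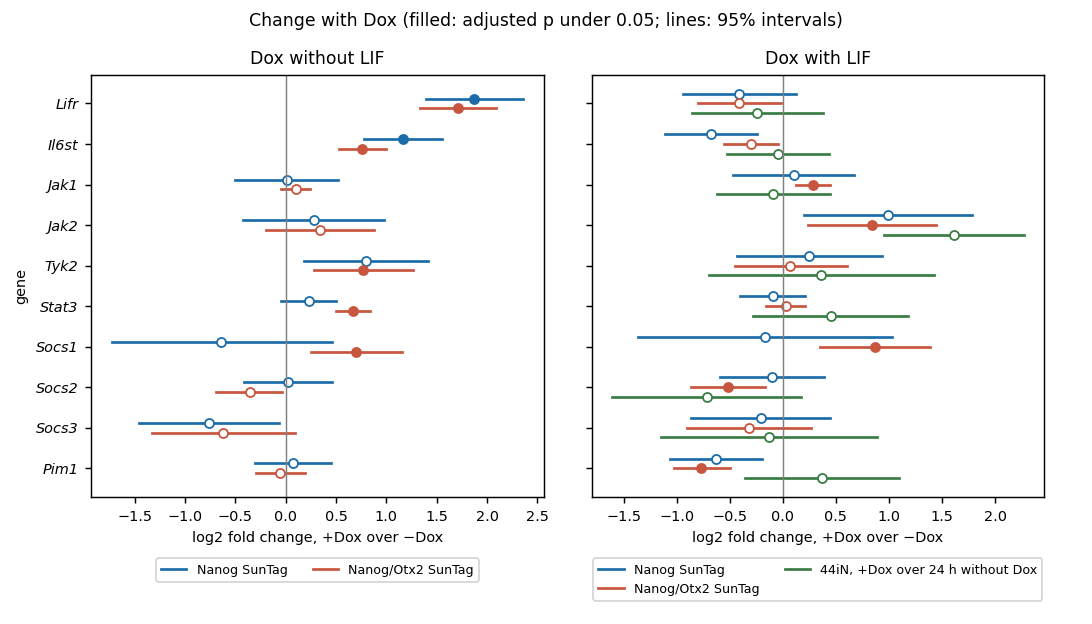
Log2 fold change (libraries with Dox over those without) of the 10 genes, without LIF on the left and with LIF on the right, in Nanog SunTag (blue), Nanog/Otx2 SunTag (red) and 44iN cells (green), with 95% intervals and filled points where the adjusted p was under 0.05. Without LIF the points of Lifr are at 1.87 and 1.71, with LIF at -0.41 in both kinds of SunTag cells, and Jak2 lies above 0 with LIF in all 3 kinds of cells.

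With Dox in both arms, LIF withdrawal left Lifr of Nanog SunTag cells without a call, at a log2 fold change of -0.26 (95% interval -0.78 to 0.26, adjusted p = 0.418). Il6st was higher without LIF there (1.09, SE 0.20, adjusted p = 0.00253), and Stat3 (-2.11, adjusted p = 1.05e-05) and Socs3 (-6.48, adjusted p = 5.11e-06) were lower. Pim1 was called lower (-0.66, SE 0.19, adjusted p = 0.0217), for 4 called genes in all, where 32.6% of all genes were called. The call of Pim1 was lost with no filter on low counts (-0.58, adjusted p = 0.0632). It was also lost without C1-1 or C2-1 with LIF and Dox (-0.67 and -0.61, adjusted p = 0.093 and 0.0871), and without C1-1 or C2-2 with Dox alone (-0.67 and -0.57, adjusted p = 0.0605 and 0.0813). Socs2 (0.50, adjusted p = 0.104) was called after the GC correction (0.56, adjusted p = 0.0493). It was also called without C1-1 of the libraries with LIF, the one without Dox or the one with Dox, at 0.52 (adjusted p = 0.0396) and 0.87 (adjusted p = 0.0423).

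The same comparison in Nanog/Otx2 SunTag cells called 5 of the 10 genes, where 36.5% of all genes were. Lifr (-0.71, SE 0.17, adjusted p = 0.0045), Jak1 (-0.27, SE 0.07, adjusted p = 0.00607), Stat3 (-2.00, adjusted p = 1.51e-09) and Socs3 (-5.89, adjusted p = 1.31e-08) were lower. Socs2 was higher (0.52, SE 0.15, adjusted p = 0.0166), a call that was lost without C2ON3-1 or C2ON3-2 with LIF and Dox (0.46 and 0.47, adjusted p = 0.0507 and 0.051) or C1ON3-1 with Dox alone (0.36, adjusted p = 0.0652). Il6st (-0.21, adjusted p = 0.159) was not called. Tyk2 (-0.23, adjusted p = 0.465) and Pim1 (-0.23, adjusted p = 0.132) were called with the block only (-0.25 and -0.23, adjusted p = 0.0204 and 0.0429). With the clone alone as the block Pim1 was not called (-0.23, adjusted p = 0.104). With replicate numbers from the column names as the block, Jak2 was called as well (-0.42, adjusted p = 0.0444).

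With LIF present, neither receptor chain was called higher with Dox. In Nanog SunTag cells none of the 10 genes was called by edgeR, where 0.563% of all genes were (88, and 293 with the clone as a block). In edgeR 3 of the 10 (Il6st, Jak2 and Pim1) had an unadjusted p under 0.05, and in DESeq2 Il6st was called (-0.66, adjusted p = 0.0452). The induced gene Nanog also missed the threshold in edgeR (1.74, adjusted p = 0.0793). A missing call in this comparison therefore does not show that a gene is unchanged. Lifr was at 2768 and 2639 and Il6st at 882.2 and 1166 with LIF and Dox, all below the libraries with LIF alone. Their log2 fold changes were -0.41 (95% interval -0.94 to 0.12, adjusted p = 0.459) and -0.68 (95% interval -1.11 to -0.24, adjusted p = 0.156). Pim1 was at 1149 and 1160, also below the 1478 to 2112 with LIF alone (-0.63, 95% interval -1.06 to -0.20, adjusted p = 0.178). Stat3 was at 2266 and 2545 and Socs3 at 2844 and 3668, with log2 fold changes of -0.09 (95% interval -0.40 to 0.21) and -0.21 (95% interval -0.87 to 0.44). The 5 ES cell markers summed to between 87049 and 95020, within their range with LIF alone. Markers of other cell types were low but moved with Dox here. Those of mesendoderm summed to between 91.14 and 207.9 with LIF alone and to between 492.5 and 688.2 with Dox, those of trophoblast to between 251.7 and 466 and between 777.7 and 837.4, and those of fibroblasts to between 144.6 and 505.6 and between 725.5 and 732.9. Of these 15 markers Gsc, Cdx2, Col3a1 and Dcn had at most 3 counts in every library of both groups. The part of the others in the results was not tested. Neuroectoderm markers summed to between 358.8 and 475.6 with Dox, above 167.3 to 350.8 with LIF alone, and their part was not tested either.

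For Nanog/Otx2 SunTag cells with LIF, 5 of the 10 genes were called with Dox, where 22.9% of all genes were (3577, and 6401 with the block). The summed ES cell markers lay between 94298 and 100585, below the 105734 to 115426 with LIF alone. The summed fibroblast markers lay between 605.7 and 804, above 198.4 to 361.1, those of trophoblast between 732.6 and 896.7, above 397.3 to 496.9, and those of mesendoderm between 188.1 and 339.2, above 106.6 to 162. Col3a1 and Dcn had at most 3 counts in all of these libraries, and the part of these markers in the results was not tested. Pim1 was at 1581, 1373, 1201 and 1396, below the 2117 to 2863 without Dox (-0.77, SE 0.12, adjusted p = 0.000735). Jak1 was higher at 1580, 1604, 1528 and 1506 (0.28, SE 0.07, adjusted p = 0.0144). Socs1 was also higher, at 68.93, 61.81, 60.84 and 56.48 (0.87, SE 0.24, adjusted p = 0.0198), and Socs2 lower, at 1116, 1236, 936 and 942.4 (-0.52, SE 0.17, adjusted p = 0.0356). Without C1ON3-1 or C1ON3-2 with LIF alone the call of Socs1 was lost (0.78 and 0.80, adjusted p = 0.0965 and 0.0992), and so was that of Socs2 (-0.43 and -0.44, adjusted p = 0.148 and 0.147). That of Socs2 was also lost without C2ON3-1 or C2ON3-2 with LIF and Dox (-0.47 and -0.48, adjusted p = 0.0957 and 0.0849) and with no filter on low counts (-0.51, adjusted p = 0.0585). Lifr (-0.41, adjusted p = 0.123) and Il6st (-0.30, adjusted p = 0.077) were called lower with the block, at -0.46 (adjusted p = 0.00559) and -0.34 (adjusted p = 0.0258). With the clone alone as the block Lifr was at -0.44 and not called (adjusted p = 0.0555). Il6st was also called without C1ON3-1 or C2ON3-2 without LIF and Dox (-0.30 in both, adjusted p = 0.0439 and 0.0424).

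Jak2, which per kb of exon had the lowest mean of the 3 kinases in every SunTag group but not in 44iN cells with Dox or in Tg2a cells, was at 371.1 and 299.6 in Nanog SunTag cells with LIF and Dox, above the 122.3 to 230.3 with LIF alone, a log2 fold change of 0.99 (SE 0.36, adjusted p = 0.258). Jak2 in Nanog/Otx2 SunTag cells was at 300.8, 313.6, 214.3 and 270.2, above 158.9, 142.3 and 166.7 (0.84, SE 0.28, adjusted p = 0.0438). This call was close to the threshold and was lost in 8 of the 15 fits that left out 1 library, with values between 0.78 and 0.88 and adjusted p between 0.052 and 0.149. The 8 libraries were all 3 with LIF alone, C1ON3-1, C1ON3-2 and C2ON3-2 with LIF and Dox, and C1ON3-2 and C2ON3-1 with Dox alone. With the clone and its number as a block the call was kept, at 1.00 (adjusted p = 0.00234).

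The interaction of LIF and Dox asks whether the effect of Dox without LIF differs from that with LIF. It was called in Nanog SunTag cells for Lifr (2.28, SE 0.33, adjusted p = 0.00827) and Il6st (1.84, SE 0.27, adjusted p = 0.00827), where 1.93% of all genes were called (302, and 709 with the block). In Nanog/Otx2 SunTag cells it was called for Lifr (2.12, SE 0.25, adjusted p = 0.000179), Il6st (1.07, SE 0.16, adjusted p = 0.000997), Stat3 (0.65, SE 0.12, adjusted p = 0.00308) and Pim1 (0.71, SE 0.17, adjusted p = 0.0157). There 9.7% of all genes were called (1514, and 3407 with the block). For Pim1 the effect of Dox in Nanog/Otx2 SunTag cells was -0.77 with LIF and -0.06 without it, and the interaction was 0.55 (adjusted p = 0.0512) without C1ON3-1 with LIF alone. That of Tyk2 there (0.70, adjusted p = 0.233) was called with the block (0.54, adjusted p = 0.00796). For Socs3 the interaction was -0.55 (95% interval -1.50 to 0.40) and -0.30 (95% interval -1.22 to 0.62) in the 2 kinds of cells, and both intervals include 0.

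Whether the added Otx2 guide changed the effect of Dox without LIF was tested as a difference between the kinds of cells, each against its own libraries without Dox. None of the 10 genes was called by edgeR, where 0.0308% of all genes were, 5 in all, and DESeq2 also called none of the 10. In edgeR 3 of the 10 had an unadjusted p under 0.05. These were Stat3, with a difference of 0.40 (95% interval 0.14 to 0.66, adjusted p = 0.58), Socs1 (1.30, 95% interval 0.31 to 2.28, adjusted p = 0.706) and Il6st (-0.44, 95% interval -0.85 to -0.04, adjusted p = 0.852). The call of Stat3 in Nanog/Otx2 SunTag cells alone is thus not shown to be particular to them.

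In 44iN cells, in LIF throughout, 24 h without Dox brought Nanog from 15880 to 722.5 on average. None of the 9 genes tested was called by edgeR, and neither was any other gene (0%), while 1023 of 14376 genes had an unadjusted p under 0.05. Nanog itself (log2 fold change 4.56, adjusted p = 0.0902) and Otx2 (-2.92, adjusted p = 0.156) also missed the threshold. A missing call in this fit therefore does not show that a gene is unchanged. DESeq2 called 141 genes. Jak2 was at 1070 and 869.3 with Dox and at 367.2 and 310.6 without it, so that the groups were well apart. Its log2 fold change was 1.61 (SE 0.27, adjusted p = 0.256) and was called in DESeq2 (1.59, adjusted p = 0.00336) and with no filter on low counts (1.62, adjusted p = 0.0012). It was also called without the first or the second library with Dox (1.46 and 1.71, adjusted p = 0.000788 and 2.55e-05), where the lone library left is assumed to vary like the other group.

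Lifr, Il6st, Stat3 and Socs3 were not called over these 24 h. Lifr was at 8064 and 5428 with Dox and at 8821 and 8155 without it (-0.24, 95% interval -0.86 to 0.38, adjusted p = 0.784). Il6st was at 2734 and 2568 with Dox and at 2841 and 3023 without it (-0.05, 95% interval -0.53 to 0.43, adjusted p = 0.926). Socs3 was at 762 and 1501 with Dox and at 1058 and 1606 without it (-0.13, 95% interval -1.15 to 0.89, adjusted p = 0.908). Stat3 was at 2378 and 3253 with Dox and at 1812 and 2603 without it (0.45, 95% interval -0.28 to 1.18, adjusted p = 0.784), and was called without the first library with Dox (0.66, adjusted p = 0.0403). Socs2 was at 2554 and 1331 with Dox and at 4113 and 2709 without it (-0.72, 95% interval -1.61 to 0.17, adjusted p = 0.784), and was also called without that library (-1.25, adjusted p = 0.000124). In both groups the first library was the higher in Lifr and Socs2 and the second in Socs3 and Stat3. Socs1 had at most 13 counts in a library and did not pass the filter on low values.

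**Figure D4:**
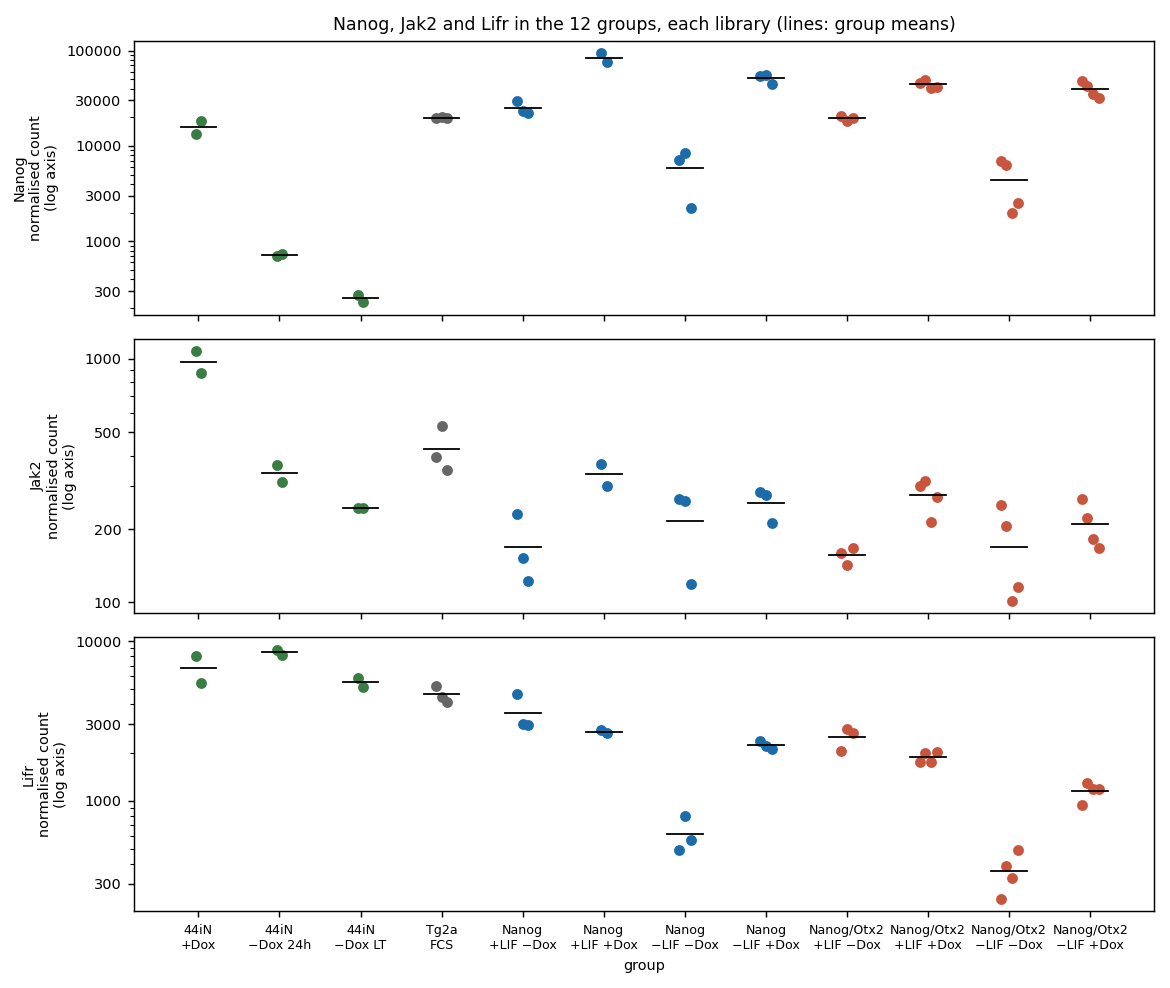
Normalised counts (log axis) of Nanog, Jak2 and Lifr in each library of the 12 groups, with black lines at the group means, for 44iN (green), Tg2a (grey), Nanog SunTag (blue) and Nanog/Otx2 SunTag cells (red). Jak2 is highest in 44iN cells with Dox (1070 and 869.3), whose Nanog is below that of SunTag cells with Dox, and Lifr falls below 1000 only in SunTag cells without LIF, in both groups without Dox and in 1 library (936.3) with it.

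Long-term Nanog-null 44iN cells were compared with Tg2a cells, both in LIF. The cell line, the G418 selection of the 44iN cells and the state of Nanog cannot be told apart here. None of the 10 genes was called by edgeR, where 8.61% of all genes were (1286), and 3 of the 10 had an unadjusted p under 0.05. Jak2 was at 244.5 and 243.8 against 394, 530.3 and 350.1 (-0.88, 95% interval -1.47 to -0.29, adjusted p = 0.0727). It was called in DESeq2 (-0.86, adjusted p = 0.0108), after the GC correction (-0.92, adjusted p = 0.0128) and without the third Tg2a library (-1.01, adjusted p = 0.0185). Socs2 was at 3582 and 4173 against 2868, 2532 and 1862 (0.60, 95% interval 0.14 to 1.06, adjusted p = 0.103), and was called after the GC correction (0.61, adjusted p = 0.0446) and without the first Tg2a library (0.73, adjusted p = 0.0445). Pim1 was at 825.9 and 924.2 against 949.5, 1084 and 1466 (-0.49, adjusted p = 0.167). Lifr was at 5839 and 5160 against 5257, 4459 and 4154 (0.17, 95% interval -0.19 to 0.54), and Il6st at 2842 and 2685 against 2860, 2602 and 2319 (0.01, 95% interval -0.33 to 0.36). Stat3 was at 1811 and 1902 against 1891, 1950 and 2276 (-0.21, 95% interval -0.54 to 0.11), and Socs3 at 1203 and 1443 against 853.9, 1340 and 1963 (-0.14, 95% interval -0.82 to 0.54). The groups overlapped for all 4 of these genes, and none was called. Each of these intervals excludes a loss of the size that LIF withdrawal gave the same gene in either kind of SunTag cells.

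The wider pathway was covered by 46 further genes in 6 lists, of which 42 were tested in Nanog SunTag and 43 in Nanog/Otx2 SunTag cells. These lists were also made with earlier results of these data known, so their shares and medians are descriptions. On LIF withdrawal without Dox 7 rose and 15 fell in Nanog SunTag cells, and 7 rose and 20 fell in Nanog/Otx2 SunTag cells. These were 52.4% and 62.8% of the tested genes of the lists, beside the 41.5% and 49.8% called among all genes. Their medians were -0.23 and -0.33, against -0.05 and -0.01 over all genes. Among other JAK and STAT genes, Jak3, Stat4, Stat5a and Stat6 fell in both kinds of cells. Jak3, a kinase of the common gamma chain receptors of lymphocytes, changed by -2.40 and -2.55. Stat5a changed by -1.87 and -1.34, and Stat4 by -0.84 and -0.65. The call of Stat4 in Nanog/Otx2 SunTag cells was lost without C2ON3-1 with LIF and without Dox (-0.57, adjusted p = 0.0527). With Dox and without LIF, Stat5a rose in both (1.78 and 1.67, adjusted p = 0.00427 and 0.000202), while Jak3 (0.02 and 0.20) was not called in either.

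The list of 12 STAT3-responsive genes fell the most, with medians of -1.92 and -2.14. In Nanog SunTag cells 8 were lower and none higher, and in Nanog/Otx2 SunTag cells 9 were lower and 1 higher (Mcl1). These were 66.7% and 83.3% of the list, beside 41.5% and 49.8% of all genes called in either direction. Over all genes 21.3% and 25.2% were called lower. Klf4, a transcription factor of ES cells, fell from 3967 ± 448.4 (SD, n = 3) to 85.84 ± 17.32 (SD, n = 3) in Nanog SunTag cells (-5.56, SE 0.22). Bcl3, a co-regulator related to the inhibitors of NF-kB, changed by -5.19 and -4.93, the transcription factor Tfcp2l1 by -4.85 and -5.24, and Gbx2 by -3.59 and -2.12. With Dox and without LIF, Klf4 (2.39 and 2.04), Klf5 (2.71 and 2.79) and Tfcp2l1 (2.20 and 2.10) rose in both, while Bcl3 (0.37 and 0.27) was not called in either. Gbx2 was called in Nanog SunTag cells (1.39, adjusted p = 0.0265) but not in Nanog/Otx2 SunTag cells (-0.30, adjusted p = 0.751), and its call was lost without C1-1 without LIF and Dox (1.09, adjusted p = 0.0758) and without C1-1 or C1-1b with Dox alone (1.34 in both, adjusted p = 0.113 and 0.0874). Sbno2 was called higher with Dox in Nanog/Otx2 SunTag cells only. In each kind of cells 4 of the 12 genes were called with Dox without LIF, all higher. This was 33.3%, where 5.14% of all genes were called in Nanog SunTag and 17.3% in Nanog/Otx2 SunTag cells. The list thus held some genes that rose with Dox and others, such as Bcl3, that were not called.

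The other Pim kinases moved in opposite directions on LIF withdrawal. Pim2 rose from 757.4 ± 60.43 to 22760 ± 1441 (SD, n = 3 each) in Nanog SunTag cells (4.89, SE 0.19, adjusted p = 1.39e-07) and from 1107 ± 600.6 (n = 3) to 28129 ± 2228 (n = 4) in Nanog/Otx2 SunTag cells (4.59, SE 0.31, adjusted p = 2.53e-08). Pim3 fell like Pim1, by 1.96 and 1.46 on the log2 scale. With Dox and without LIF Pim2 fell to 8683 ± 1093 (n = 3) and 14326 ± 2074 (n = 4), by 1.36 and 0.94 on the log2 scale (adjusted p = 0.000719 and 0.0137).

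Among 13 other inhibitors, 3 rose and 1 fell in Nanog SunTag cells and 2 rose and 3 fell in Nanog/Otx2 SunTag cells on LIF withdrawal without Dox. These 30.8% and 38.5% lay below the 41.5% and 49.8% of all genes called. Ptpn11, which encodes the phosphatase SHP2 that binds gp130, rose by 1.06 and 0.63, Socs6 rose by 0.71 and 0.50, and Pias2, of a family that binds STAT factors, fell by 0.82 and 0.71 on the log2 scale. The call of Socs6 in Nanog SunTag cells was lost without C2-1 or C2-2 with LIF alone (0.56 and 0.58, adjusted p = 0.0938 and 0.097) or C1-2 without LIF and Dox (0.67, adjusted p = 0.0707). Of the ligands of the family, Clcf1 rose in both kinds of cells (3.90 and 4.40, adjusted p = 6.57e-05 and 1.04e-08). Lif itself rose in Nanog SunTag cells, from 93.75 ± 25.89 to 158.9 ± 6.868 (SD, n = 3 each; 0.73, adjusted p = 0.0443), and was at 0.38 (adjusted p = 0.17) in Nanog/Otx2 SunTag cells. Of 4 other receptors 3 were tested, all but Osmr, and on LIF withdrawal without Dox none of them was called in Nanog SunTag cells, while in Nanog/Otx2 SunTag cells Cntfr rose and Il6ra fell. Il6ra, the chain that binds IL-6, rose with Dox in Nanog SunTag cells without LIF (2.22, adjusted p = 0.0165) and with it (2.49, adjusted p = 0.0495). In Nanog/Otx2 SunTag cells it rose with Dox and LIF (1.52, adjusted p = 0.0222) and was at 0.88 without LIF (adjusted p = 0.171).

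**Figure D5:**
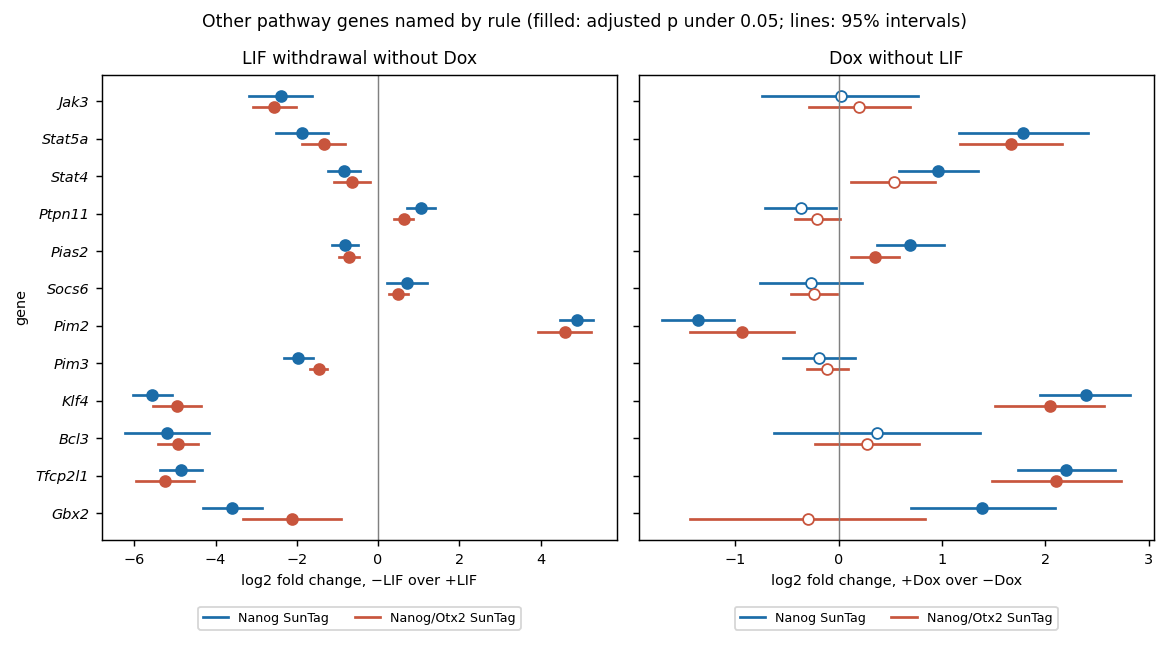
Log2 fold change of 12 other pathway genes named by rule, on LIF withdrawal without Dox (left, without LIF over with LIF) and with Dox without LIF (right, with Dox over without), in Nanog SunTag (blue) and Nanog/Otx2 SunTag cells (red), with 95% intervals and filled points where the adjusted p was under 0.05. Pim2 is at 4.89 and 4.59 on the left and below 0 on the right, and Klf4 and Tfcp2l1 are below -4 on the left and above 2 on the right, while Bcl3 on the right stays near 0.

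The genes whose log2 levels most resembled those of Socs3 over the 35 libraries were Bcl3 (Pearson r = 0.97), Icam1 (0.96) and Stat3 (0.95), out of 11290 genes averaging 100 normalised counts or more. For Lifr they were 2500002B13Rik (0.96), Fanci (0.95) and Ift52 (0.95). Icam1 fell from 2960 ± 857.9 to 276.8 ± 20.04 (SD, n = 3 each) on LIF withdrawal in Nanog SunTag cells (-3.43, adjusted p = 1.45e-06), and Bcl3 from 718.5 ± 381.3 to 19.46 ± 4.544. Stat3 is thus both a member of the pathway and among the genes closest to Socs3 in pattern. These likenesses are descriptions, and the libraries share lines, clones, conditions and GC trends.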

How the data were processed

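Poly-A RNA was sequenced from stranded TruSeq libraries as 65-base single-end reads. The authors called reads with CASAVA 1.8, aligned them to mm9 with STAR and quantified genes with RSEM, and deposited a table of estimated counts as whole numbers. A further deposited table holds the signal, in which a library's estimated counts were divided by its DESeq2 size factor, here called the normalised count. Versions of STAR, RSEM and DESeq2 are not given in the sources used here. Both tables hold 35 libraries, and no column of per-library values was left without a label. Of the labelled samples, 3 Tg2a libraries in 2i medium were not analysed here.

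Groups followed the labels, and the columns of some SunTag libraries were matched through their titles. Estimated counts were tested with the quasi-likelihood test of edgeR (4.0.16, in R 4.3.3) after TMM normalisation, on genes that reached 10 normalised counts throughout at least 1 group of the fit. P-values were adjusted by the Benjamini-Hochberg procedure over all genes tested, and an adjusted p under 0.05 was a call. There were 5 fits: the Nanog SunTag, the Nanog/Otx2 SunTag, the 44iN, the long-term 44iN with Tg2a, and all SunTag libraries for the difference between guides. The members and gene lists were chosen with earlier results of these data known. Named genes of the wider lists were up to 4 per list that were called in the same direction in both kinds of SunTag cells on LIF withdrawal without Dox and averaged 100 normalised counts or more in the higher group, taken by the size of the change in Nanog SunTag cells. Others were named after their values were seen (Clcf1, Lif, Stat6, Klf5, Mcl1, Myc, Icam1, Sbno2, Cntfr and Il6ra). Some genes of the lists are not reported here one by one. Replicates of a group differed by more than sampling noise (chi-square per degree of freedom between 9.148 and 200.1 over 37 pairs).

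Libraries of the same clone come from the same cell line and so pair the SunTag groups. In Nanog SunTag cells the deviations of such libraries correlated at 0.15 on average (22 pairs, 23 other pairs at -0.14), with the lowest at -0.06, and in Nanog/Otx2 SunTag cells, by clone and number, at 0.30 (21 pairs, lowest 0.13). For 1 library of the latter, C2ON3-1 with LIF and without Dox, the column name gives another number than the title used here. The correlation by the column numbers was 0.31 (lowest 0.12) and by clone alone 0.23 (lowest -0.08), and both were later tried as blocks, with the data known. The fit with the block by title is given beside a result where it changes a call. Alternatives were DESeq2 (1.42.0), edgeR with the size factors of DESeq2, all genes without the filter, the block and each library left out. A correction for a GC trend in each library was added after the data were seen. The scripts were tested on simulated counts. Likeness was Pearson's r of log2(normalised count + 1) over genes with a mean of 100 or more.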

Additional observations from a re-analysis of the deposited data

Results flagged for a closer look

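The effect of Dox differed between cells without and with LIF, by the test of the interaction, for both receptor chains. The log2 difference was 2.28 for Lifr and 1.84 for Il6st in Nanog SunTag cells, and 2.12 for Lifr and 1.07 for Il6st in Nanog/Otx2 SunTag cells. It also differed for Stat3 (0.65) and Pim1 (0.71) in Nanog/Otx2 SunTag cells. Of these, Pim1 alone was not called in every alternative fit.

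Within groups of 4 libraries, Pim1 in C1ON3-2 of Nanog/Otx2 SunTag cells without LIF and with Dox, at 1099 normalised counts, lay far below the other libraries, which were between 1220 and 1227. This was 1 of 30 sets of 4 values examined, and chance alone sets apart about 1 set in 20.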

How the results depend on the processing

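Of 2391 values of the 10 genes under the alternatives, 2304 kept their side of the threshold, 36 lost a call (33 with 1 library left out), 51 gained one (16 with 1 library left out) and none of the called values changed direction. Of 38 called values, 30 were called in every alternative. The exceptions were Pim1 on LIF withdrawal with Dox in Nanog SunTag cells and, in Nanog/Otx2 SunTag cells, Socs2 on LIF withdrawal with Dox, Tyk2 and Socs1 with Dox without LIF, Jak2, Socs1 and Socs2 with Dox and LIF, and the interaction of Pim1. Each of these was called with the block by title, and the cause of the lost calls was not tested.

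Counts of called genes varied more. In Nanog SunTag cells DESeq2 called 1509 genes with Dox without LIF, 587 with Dox and LIF (1 of the 10 genes) and 877 for the interaction. It called 141 in 44iN cells (1 of the 10), 2294 in long-term 44iN against Tg2a cells (1 of the 10) and 41 for the difference between guides. With no filter on low counts 151 genes were called with Dox and LIF in Nanog SunTag cells and 434 in 44iN cells (1 of the 10). The GC correction gave 264 genes with Dox and LIF and 506 for the interaction in Nanog SunTag cells, 15 in 44iN cells and 3249 in long-term 44iN against Tg2a cells (2 of the 10).

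With the clone as a block the counts in Nanog SunTag cells were 1375 with Dox without LIF, 293 with Dox and LIF and 709 for the interaction. They were 5215, 6401 and 3407 in Nanog/Otx2 SunTag cells, where the number of 1 library is in doubt, 5398, 6519 and 3331 with the numbers of the column names and 4690, 5831 and 2887 with the clone alone, and 10 for the difference between guides. With the numbers of the column names 8 of the 10 genes were called on LIF withdrawal with Dox. The blocks changed no calls of the 10 genes in SunTag cells other than those given beside the results. The 44iN and Tg2a libraries share only a replicate number. With it as a block 1912 genes were called in 44iN cells (2 of the 10: Jak2 at 1.61, adjusted p = 4.45e-11, and Socs2 at -0.76, adjusted p = 0.00144) and 4840 in long-term 44iN against Tg2a cells (2 of the 10: Jak2 at -1.0, adjusted p = 0.000891, and Socs2 at 0.43, adjusted p = 0.0133). Same-numbered libraries correlated at 0.49 in 44iN cells (2 pairs, the others at -0.49) and at 0.13 in the other (2 pairs).

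With 1 library left out, the called genes of Nanog SunTag cells ranged from 2499 (without C1-1 with LIF and Dox) to 6998 (without C1-1 with LIF alone) on LIF withdrawal with Dox. They ranged from 277 (without C1-1 without LIF and Dox) to 1617 (without C1-1 with LIF alone) with Dox without LIF, from 3 to 142 with Dox and LIF, and from 81 to 481 for the interaction. In Nanog/Otx2 SunTag cells they ranged from 1756 to 3007 with Dox without LIF (3 to 5 of the 10 genes), from 1962 to 4036 with Dox and LIF (2 to 6 of the 10) and from 870 to 1847 for the interaction. In 44iN cells they ranged from 61 to 3413 (0 to 3 of the 10), both extremes without the first library of a group, in long-term 44iN against Tg2a cells from 19 (without the first 44iN library) to 2618 (0 to 1 of the 10), and for the difference between guides from 0 to 8. A library left alone in its group was assumed to vary like the others.

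Groups of 2 to 4 libraries, few clones and the low counts of Socs1 limit these results. The GC trend of single libraries is as large as some differences described, and its part was tested only through the correction.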

Other observations

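Clones differed in some of these genes under the same condition. In Nanog/Otx2 SunTag cells without LIF and Dox, Jak2 was at 250.4 and 206.1 in C1ON3 and at 101.6 and 115.7 in C2ON3. Nanog in the same libraries was at 6867 and 6327 against 1974 and 2533. In Nanog SunTag cells without LIF and Dox, Jak2 was at 264.6 and 261.1 in the C1 clone and at 119.2 in the C2 clone, and Nanog at 7032 and 8484 against 2234. Tyk2 was higher in C1ON3 than in C2ON3 in all 4 conditions of Nanog/Otx2 SunTag cells, for instance at 1186 and 1088 against 804 and 722.6 with LIF and Dox. The difference between clones was not tested.

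In long-term 44iN cells, 6 of the 44 tested genes of the wider lists differed from Tg2a cells, which is 13.6% beside the 8.61% of all genes called. Klf4 fell by 2.31, Stat5a by 1.57 and Tfcp2l1 by 0.87 on the log2 scale, Clcf1 was also lower, and Pim2 (1.41) and Myc (0.88) were higher. The line, the G418 selection and the state of Nanog cannot be told apart in this comparison. The 5 ES cell markers other than Nanog summed to between 45369 and 48889, below the 68587 to 79752 in Tg2a cells. The 3 formative markers summed to between 13899 and 16333, above 6670 to 7952. Primitive endoderm markers summed to between 8520 and 13018, and in Tg2a cells to between 6074 and 8559. In 44iN cells with Dox they summed to between 202.2 and 707.5, and 24 h after its removal to between 609.3 and 1289. The part of all these markers in the changes was not tested.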
